A study of Mus musculus with 35 samples.

Results

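The response of spleen memory CD8 T cells to PMA/ionomycin was read from 10 of the 35 RNA-seq libraries of this series: 5 labelled as stimulated (replicates 36 to 40) and 5 labelled as unstimulated (replicates 30 to 34). All 10 came from the spleen of aged male C57BL/6 mice, and the cells had been sorted as CD3e+CD8+CD44hiCD62Llo, a gate for antigen-experienced T cells. The stimulated cells were held with PMA/ionomycin for 2 hours at 37C, and the labels give the other group as unstimulated, under the same note on treatment, without saying how those cells were held. The labels do not say whether each library is 1 mouse or a pool, so the spread behind the p-values is that between libraries and may be technical in part. The comparison asks which genes a sorted memory CD8 T cell from an aged spleen changes within the first hours of receptor-independent activation.

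PMA is a phorbol ester that stands in for diacylglycerol and switches on protein kinase C and the Ras activators of the RasGRP family, and ionomycin is an ionophore that lets calcium into the cell. Given together they bypass the T cell receptor and drive its main downstream branches: the MAP kinases, which feed the serum response factor and AP-1; the NF-kB pathway; and calcineurin, which releases NFAT into the nucleus. Memory CD8 T cells are known to keep cytokine and chemokine genes poised for such signals, and the first genes to respond, the immediate early genes, need no new protein for their transcription.

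Spleen libraries held 6745077 to 14709415 counts. Marker genes of the gate were present throughout: Cd8a stood at 134.8 to 326.1 CPM (counts scaled to the library size) in stimulated and 284.5 to 355.7 CPM in unstimulated libraries, and neither Cd3e (log2 fold change −0.23 ± 0.24 SE, adjusted p = 0.558) nor Cd8a (−0.38 ± 0.20, adjusted p = 0.225) passed the edgeR test. Stimulated libraries held fewer genes with a count (14084 ± 448 against 15009 ± 164, SD, n = 5 each; exact permutation test, two-sided, p = 0.007937, the smallest that 5 against 5 allows) and a larger share of mitochondrial counts (16.3% ± 2.53 against 11.8% ± 1.05, exact permutation p = 0.007937). Stimulated replicate 40 had the highest mitochondrial share, 20.8%. The part that these library measures play in the gene results below was not tested, and in bulk RNA fewer cells of a kind and less RNA per cell cannot be told apart.

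Of 11107 genes tested, 1400 were higher and 680 lower after stimulation (edgeR quasi-likelihood test, Benjamini-Hochberg adjusted p below 0.05), which is 18.7% of the genes, 12.6% higher and 6.12% lower. The gains were the larger: 804 of the higher and 340 of the lower genes changed by over 2-fold, and 149 and 39 by over 8-fold, with median log2 fold changes of 1.17 and −1 among the called genes. The 1400 higher genes took 71.3% ± 3.72 of all counts in stimulated and 52.5% ± 2.27 in unstimulated libraries (SD, n = 5 each). That shift bears on every small change: TMM scaling, which assumes that most genes stay put, placed the median log2 fold change of all tested genes at −0.07, and plain library totals, tried after seeing the data, placed it at −0.73 and called 523 genes higher and 4377 lower. All 680 lower genes were called lower on both scales. Plain totals move log2 fold changes downwards, so this could hardly come out otherwise and is no check of the losses. Among the 1400 higher genes, 1157 stayed above 0 on plain totals and 523 were still called higher, so small gains, of the size of the 0.65 log2 units between the scales, are gains relative to the other genes. Counts of list members on plain totals, given below, are to be read beside the 523 higher and 4377 lower of 11107 on that scale.

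**Figure D1:**
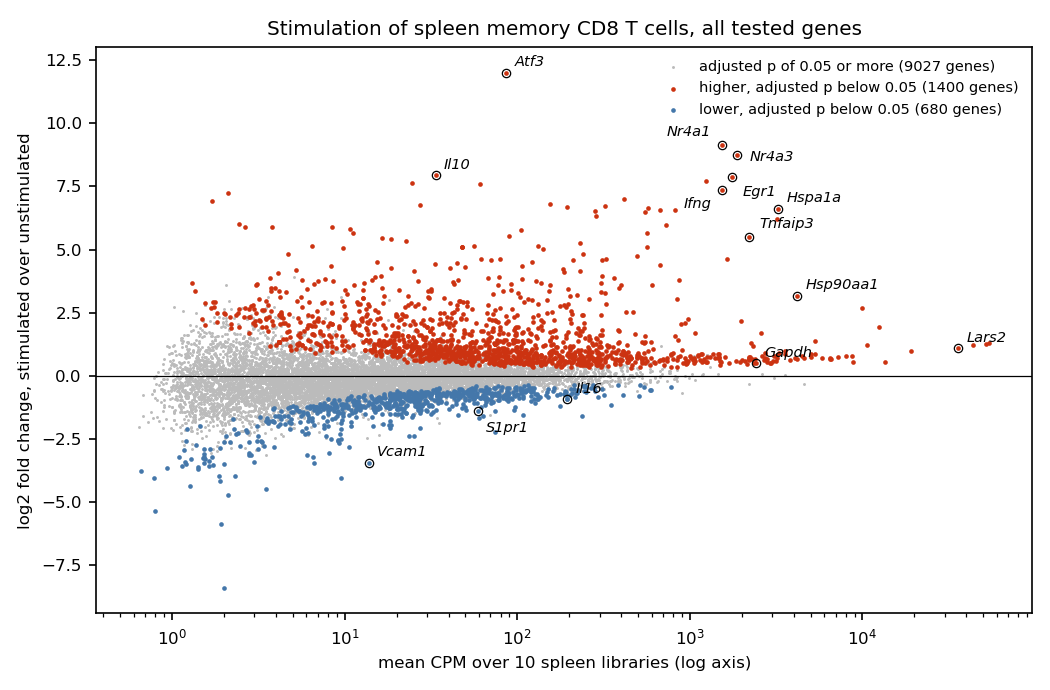
Log2 fold change of stimulated over unstimulated spleen cells (vertical axis) against mean CPM over the 10 libraries (log axis) for the 11107 tested genes. The 1400 higher genes reach much larger changes than the 680 lower ones, and Nr4a1, Egr1 and Ifng combine a high level with log2 fold changes above 7.

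Transcription factors of the immediate early response were the most uniform class. All 13 tested AP-1 and ATF subunits were higher (median log2 fold change 3.68, against −0.07 over all tested genes), as were all 6 Egr factors and Nab corepressors (median 6.66) and all 3 Nr4a orphan nuclear receptors (median 8.74), while Batf3 was too low to test. Without stimulated replicate 40 the same 13, 6 and 3 were called. Egr1, a zinc finger factor and classical target of the serum response factor, was read at 3470, 4029, 3058, 3324 and 3633 CPM in stimulated replicates 36 to 40 and at 17.6, 10.8, 15.7, 14.5 and 15.9 CPM in unstimulated replicates 30 to 34. The stimulated libraries lay close together and far above every unstimulated one, a log2 fold change of 7.88 ± 0.18 (adjusted p = 1.77e-11).

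Nr4a1, which encodes Nur77 and is widely used as a reporter of T cell activation, went from 6.02, 6.71, 3.43, 4.24 and 6.56 CPM without stimulation to 2797, 3581, 2315, 2402 and 4176 CPM with it (9.15 ± 0.29, adjusted p = 4.92e-10). Its relative Nr4a3 varied more between stimulated libraries, with 3713, 4589, 1618, 2076 and 6686 CPM against 3.67 to 12.7 CPM unstimulated (8.73 ± 0.54). In both genes replicate 40 was the highest and replicate 38 the lowest of the stimulated libraries. Fos, the AP-1 subunit induced first in most cells, broke this order: it was read at 1122, 1184, 2360, 1853 and 1640 CPM, so that replicates 38 and 39 were above replicates 36, 37 and 40, against 11.4 to 21.04 CPM unstimulated (6.56 ± 0.27, adjusted p = 6.53e-09).

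Atf3, a stress-responsive member of the ATF group, was close to absent at rest, with 2 counts over the 5 unstimulated libraries and 6641 over the 5 stimulated ones. That is a ratio of 5892 with an exact binomial 95% counting interval of 1630 to 48660, and the stimulated libraries themselves ran from 42.9 CPM in replicate 38 to 456 CPM in replicate 40. Maff, a small Maf protein, changed by 7.62 ± 0.71 and Fosb by 6.48 ± 0.27 on the log2 scale. Smaller gains were found for Junb (3.68 ± 0.20) and Jun (2.53 ± 0.13), whose unstimulated levels were already 38.6 to 51.2 and 113.4 to 136.3 CPM. Among 18 other immediate early and growth genes 16 were higher and none lower (median 3.51), including Gadd45b (6.67 ± 0.37), a stress-response gene, Irf4 (5.24 ± 0.37), a factor of T cell expansion, and Myc (4.75 ± 0.43).

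**Figure D2:**
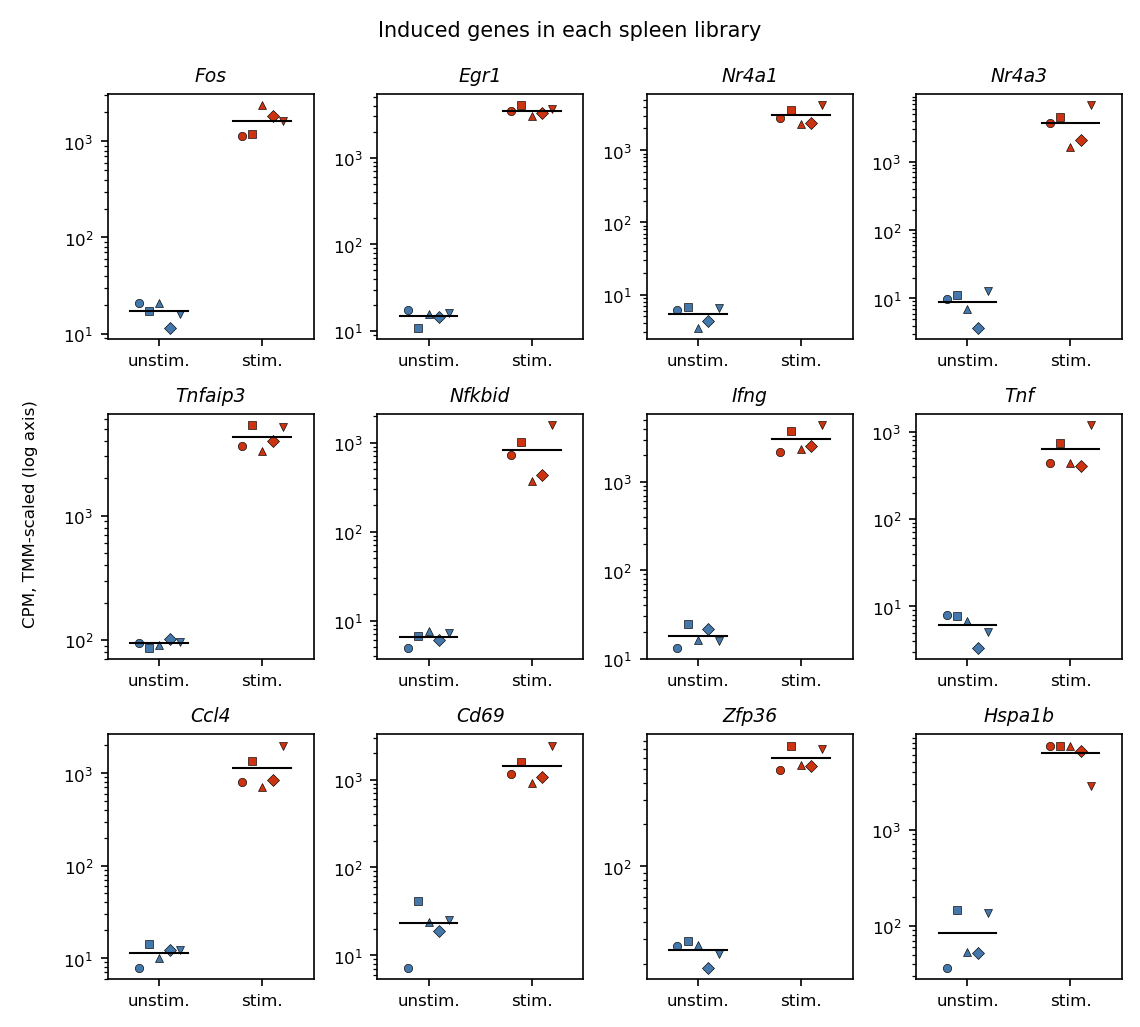
CPM of 12 induced genes in each spleen library (log axes, 1 panel a gene; the 5 marker shapes are the 5 libraries of a group in order of replicate number, bars are group means). In every panel the stimulated libraries lie above all unstimulated ones, and in Hspa1b the lowest stimulated library is replicate 40.

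The upstream regions of some of these genes hold the textbook sites of the pathways that PMA/ionomycin engages, and 6 induced genes are shown as examples, at least 1 for each kind of site; they were picked after their values were seen, and other genes with such a site, such as Fos, Btg2 and the lower gene Ifit3, are not shown. They are RefSeq sequences of GRCm38.p6, read from 5′ to 3′ on the strand of the gene, and stop before the start of the gene in RefSeq and in GENCODE M21. Capitals mark a CArG box (the site of the serum response factor) in Dusp5, a kappaB site in Nfkbia, the CRE TGACGTCA in Areg and Plk2, and the AP-1 letters TGANTCA in Zfp36l1 and Tnfsf14.
Dusp5, chr19:53528895-53529108, plus strand: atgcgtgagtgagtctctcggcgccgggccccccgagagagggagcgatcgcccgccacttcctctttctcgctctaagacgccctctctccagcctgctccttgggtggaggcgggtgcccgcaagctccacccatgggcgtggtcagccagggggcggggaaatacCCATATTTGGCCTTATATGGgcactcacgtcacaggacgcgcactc
Nfkbia, chr12:55492648-55492897, minus strand: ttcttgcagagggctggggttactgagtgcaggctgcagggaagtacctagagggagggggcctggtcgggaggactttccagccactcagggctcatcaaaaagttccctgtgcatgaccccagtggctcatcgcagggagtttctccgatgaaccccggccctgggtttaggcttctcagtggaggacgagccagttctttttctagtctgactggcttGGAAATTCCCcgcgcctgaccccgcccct
Areg, chr5:91139349-91139598, plus strand: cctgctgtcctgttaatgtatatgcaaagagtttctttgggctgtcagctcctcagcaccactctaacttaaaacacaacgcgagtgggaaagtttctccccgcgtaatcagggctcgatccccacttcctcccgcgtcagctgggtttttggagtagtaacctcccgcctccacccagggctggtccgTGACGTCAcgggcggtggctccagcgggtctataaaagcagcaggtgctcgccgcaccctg
Plk2, chr13:110394794-110395043, plus strand: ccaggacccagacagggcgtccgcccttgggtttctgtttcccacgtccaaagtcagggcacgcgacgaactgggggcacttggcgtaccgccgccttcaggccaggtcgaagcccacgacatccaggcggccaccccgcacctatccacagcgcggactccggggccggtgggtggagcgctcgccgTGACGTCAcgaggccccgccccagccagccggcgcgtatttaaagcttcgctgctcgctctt
Zfp36l1, chr12:80113014-80113263, minus strand: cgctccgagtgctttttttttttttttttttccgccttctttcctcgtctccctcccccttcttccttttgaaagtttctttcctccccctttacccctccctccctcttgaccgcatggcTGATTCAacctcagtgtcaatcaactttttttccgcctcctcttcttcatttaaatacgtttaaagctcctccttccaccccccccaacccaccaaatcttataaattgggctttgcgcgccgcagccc
Tnfsf14, chr17:57194182-57194431, minus strand: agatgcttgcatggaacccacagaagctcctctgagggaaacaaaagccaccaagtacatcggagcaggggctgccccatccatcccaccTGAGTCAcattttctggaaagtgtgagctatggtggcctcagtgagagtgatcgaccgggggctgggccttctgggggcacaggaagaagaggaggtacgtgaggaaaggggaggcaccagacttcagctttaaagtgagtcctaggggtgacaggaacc
In Dusp5 the CArG boxes are a pair laid end to end, beginning 82 and 72 bases before the RefSeq start, and the kappaB site of Nfkbia begins 29 bases before it.

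Over RefSeq windows that run from 250 bases before to 50 after each start, both strands searched, the CRE letters were found in 5.68% of 1179 windows of higher genes, 8.46% of 130 windows of genes higher by over 8-fold, 1.06% of 663 windows of lower genes, and 3.29% of 9947 windows of all tested genes. The kappaB site, searched by its usual consensus, was in 8.48%, 10.8%, 4.98% and 5.16% of the same sets of windows. CArG boxes were in 1.61%, 4.62%, 1.21% and 1.26%, and AP-1 letters in 5.004%, 6.92%, 5.88% and 4.86%. Over all 32851 windows of the table, tested or not, the shares were 1.79% for the CRE, 4.50% for the kappaB site, 1.63% for the CArG box and 7.81% for AP-1. The 4 motifs were searched independently, so matches of different motifs may overlap. These shares are descriptions of letters near the start, and several windows can belong to 1 gene.

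NF-kB subunits and inhibitors were higher in 14 of 17 tested genes and lower in none (median log2 fold change 1.77), 13 of 17 without stimulated replicate 40, and 10 higher and 1 lower on plain totals. Tnfaip3, the ubiquitin-editing enzyme A20 that shuts NF-kB signalling down, stood at 94.0, 85.8, 91.4, 102 and 95.4 CPM at rest and at 3624, 5323, 3306, 3980 and 5177 CPM after stimulation (5.51 ± 0.17, adjusted p = 4.71e-10). Nfkbia, which encodes the inhibitor IkB-alpha, rose from 21.9 to 27.3 CPM at rest to 569, 759, 391, 472 and 945 CPM (4.62 ± 0.24). The nuclear inhibitors Nfkbid (6.99 ± 0.43) and Nfkbiz (5.64 ± 0.28) changed more, whereas the regulators Cyld (−0.24), Tnip2 (0.48) and Bcl3 (0.74) did not pass. Of the subunits, Rel, the one most tied to T cell activation, gained 4.14 ± 0.44, and the other called subunits between 0.70 (Rela) and 1.69 (Nfkb2).

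Among the components that PMA and ionomycin act on, the shares called with TMM scaling were not far from those over all tested genes. Those were 12.6% higher and 6.12% lower. On plain totals 523 of the 11107 tested genes were higher and 4377 lower. Of 16 tested NFAT and calcineurin genes 3 were higher and 1 lower (median −0.04), but 2 higher and 8 lower on plain totals. Orai1, the pore of the store-operated calcium channel, was the largest of them, with 52.3, 53.2, 32.8, 34.4 and 49.2 CPM against 7.77, 8.21, 7.94, 4.34 and 4.29 CPM at rest (2.77 ± 0.27, adjusted p = 1.45e-05). Nfat5 (1.38 ± 0.14) and Nfatc1 (0.96 ± 0.21), whose short form is a known NFAT target, were the other higher ones. Among 12 tested phorbol ester targets and diacylglycerol kinases the median was 0.09, with 8 lower and none higher on plain totals. With TMM scaling the 1 lower gene was Dgkz, an enzyme that removes diacylglycerol: 75.5, 81.7, 84.5, 76.9 and 76.0 CPM after stimulation against 119, 133, 143, 158 and 137 CPM (−0.81 ± 0.12, adjusted p = 0.000397). The 1 higher gene, Rasgrp1, had a log2 fold change of 0.48, which became −0.20 on plain totals, and its call was lost in 7 of 10 fits that leave out 1 library (adjusted p up to 0.124).

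Negative feedback on the MAP kinases was induced as a group: 12 of 14 tested dual-specificity phosphatases, Sprouty and Spred genes were higher and 1 was lower (median 3.25), and the counts were the same without replicate 40. Dusp5, a nuclear phosphatase for ERK, was read at 228, 298, 140, 161 and 337 CPM against 8.29, 8.12, 9.36, 13.7 and 11.1 CPM (4.52 ± 0.28). Dusp4 (5.41 ± 0.38) and the Ras pathway inhibitor Spry1 (5.34 ± 0.53) were near absent at rest, at 0.251 to 1.24 and 0.405 to 1.76 CPM. The lower one was Dusp7 (−1.17 ± 0.31, adjusted p = 0.0179), whose call ended without unstimulated replicate 30 (adjusted p = 0.0504).

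Secreted products separated into a strongly induced few and a larger number that were barely seen. Of 18 cytokine genes 9 could be tested, 6 of them higher and 1 lower (median 2.65). Ifng, the main effector cytokine of CD8 T cells, rose from 13.1, 24.9, 16.1, 21.5 and 15.6 CPM to 2184, 3763, 2348, 2525 and 4351 CPM (7.38 ± 0.29, adjusted p = 3.9e-09). Tnf followed the same order of libraries at the top, with 433, 736, 438, 405 and 1172 CPM against 3.31 to 7.86 CPM (6.71 ± 0.40). Il10, an anti-inflammatory cytokine, was read at 54.7, 55.2, 50.4, 94.9 and 80.1 CPM, and Il21, better known from follicular helper cells, at 51.4, 89.2, 99.6, 155 and 211 CPM, both against less than 2 CPM in each unstimulated library (7.95 ± 0.67 and 7.61 ± 0.78). Il16 was the lower cytokine gene, with 154, 151, 143, 127 and 97.7 CPM against 266, 239, 269, 268 and 231 CPM (−0.92 ± 0.14, adjusted p = 0.000525).

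Il2, the T cell growth factor, fell below the filter on low counts and was not tested. It was read at 8.22, 14.9, 0.951, 0.868 and 58.9 CPM in stimulated replicates 36 to 40, with 443 of its counts in replicate 40, and among unstimulated libraries it had counts in replicate 30 alone, 9 of them. Lif, a cytokine of the interleukin 6 family, was left out in the same way and was also highest in replicate 40, at 9.98, 9.35, 0.951, 2.60 and 20.4 CPM. Il3 had no count in any of the 10 libraries, and Il4, Il5, Il13, Il17a and Il22 had at most 18 counts in any 1 of them.

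Chemokine genes were higher in 4 of 8 tested and lower in none (median 2.17). Ccl4, an inflammatory chemokine, went from 7.77 to 14.2 CPM at rest to 805, 1342, 714, 850 and 1987 CPM (6.66 ± 0.34), and Ccl3 from 6.37 to 23.9 CPM to 826, 1314, 1062, 1519 and 1890 CPM (6.58 ± 0.42). Xcl1, which attracts cross-presenting dendritic cells, changed by 2.45 ± 0.31. Ccl5, the chemokine that memory CD8 T cells store as message, was abundant in both groups, at 725 to 1561 CPM and 679.5 to 1107 CPM, and did not pass (0.49 ± 0.22, adjusted p = 0.14).

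Ligands of the TNF family were higher in 6 of 8 (median 2.30), and 4 of 8 without replicate 40. Tnfsf14, also called LIGHT, was read at 45.6, 104, 32.6, 36.5 and 177 CPM against 3.77 to 7.86 CPM (3.74 ± 0.48), and Tnfsf9, the ligand of 4-1BB, gained 4.52 ± 0.39. For Cd40lg, the CD40 ligand of helper T cells, the groups overlapped: unstimulated replicate 30 held 21.9 CPM, the other 4 at most 3.85 CPM, and stimulated replicates 19.02 to 115 CPM. Its call (3.11 ± 0.85, adjusted p = 0.0259) was lost when unstimulated replicate 32, 33 or 34 or stimulated replicate 40 was left out (adjusted p 0.0529 to 0.079).

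Most cytotoxic granule genes did not follow the cytokines. Of 13 tested, 4 were higher and none lower, a larger share higher than the 12.6% of all tested genes. The median was −0.05, near the −0.07 of all tested genes. The 4 were not the killing enzymes: Srgn, the granule proteoglycan (2.09 ± 0.20), the serpins Serpinb6b (1.68 ± 0.18) and Serpinb9, which inhibits granzyme B (0.69, call lost in 8 of 10 fits that leave out 1 library, adjusted p up to 0.114), and Lamp2 (0.82, call lost in 6 of 10, up to 0.0923). Gzmb was spread over 51.5 to 145.6 CPM in stimulated and 37.6 to 198.5 CPM in unstimulated libraries (0.18 ± 0.45, adjusted p = 0.824). Prf1, the pore-forming perforin, was at 28.5 to 59.1 and 49.9 to 69.6 CPM (−0.43 ± 0.21, adjusted p = 0.187). On plain totals 2 of the list were higher and 5 lower.

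At the cell surface, 8 of 14 tested activation and costimulatory receptors were higher and 1 lower (median 1.47), and 7 and 4 on plain totals. Cd69, the early activation antigen that also holds back egress, was read at 1167, 1577, 907, 1078 and 2439 CPM against 7.07, 40.9, 23.9, 18.9 and 24.9 CPM (5.95 ± 0.47, adjusted p = 4.49e-06). Cd83 (4.58 ± 0.65), Slamf1 (3.07 ± 0.46) and Tnfrsf1b, the second TNF receptor (2.72 ± 0.28), were the next. The lower gene, Cd226, an adhesion receptor, rested partly on unstimulated replicate 30, which held 148 CPM where the other 4 held 30.99 to 59.8 CPM; its log2 fold change was −1.29 with that library and −0.79 without it. Its call was lost without stimulated replicate 37, 38 or 39 (adjusted p 0.0519 to 0.0691).

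Inhibitory receptors and Tox factors were called in 2 of 14, both higher (median 0.42), a share near the 12.6% higher over all tested genes. Ctla4, which competes with CD28 for its ligands, stood at 142, 153, 82.8, 124 and 128 CPM against 5.85, 8.83, 11.3, 9.61 and 7.53 CPM (3.87 ± 0.22, adjusted p = 1.09e-07). Pdcd1, the gene of PD-1, was read at 78.1, 80.2, 131, 150 and 151 CPM against 10.4, 18.4, 29.6, 49.1 and 19.4 CPM (2.21 ± 0.37). Cd200r1, the receptor for CD200 that the study's title singles out, was low in the spleen, at 2.52, 5.06, 5.84, 3.65 and 0.133 CPM with and 8.64, 3.53, 4.93, 5.06 and 7.77 CPM without stimulation. Its groups overlapped and it did not pass (−0.80 ± 0.62, adjusted p = 0.417). The gate marker Cd44 did not pass with TMM scaling (0.34 ± 0.14, adjusted p = 0.123), and its value became −0.33 on plain totals (adjusted p = 0.0423).

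Of 18 receptors for cytokines 3 were higher and 2 lower (median −0.06), shares not far from those over all tested genes, and on plain totals 2 were higher and 11 lower. Il4ra, shared by interleukins 4 and 13, was read at 240, 311, 128, 154 and 423 CPM against 28.9 to 55.7 CPM (2.48 ± 0.31), and Il21r gained 1.68 ± 0.27. Il7r, the survival receptor of memory T cells, was lower, at 182, 182, 154, 129 and 124 CPM against 325, 300, 290, 154 and 310 CPM, the one low unstimulated value being replicate 33 (−0.84 ± 0.20, adjusted p = 0.0102). Tgfbr2, a receptor of TGF-beta, was lower by −0.66 ± 0.13 (adjusted p = 0.0041).

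Downstream of these receptors 6 of 12 JAK-STAT feedback and Pim genes were higher and 1 lower, and 3 and 2 on plain totals, led by the kinase gene Pim1 (4.12 ± 0.32) and Socs3 (2.36 ± 0.42), a feedback inhibitor.

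**Figure D3:**
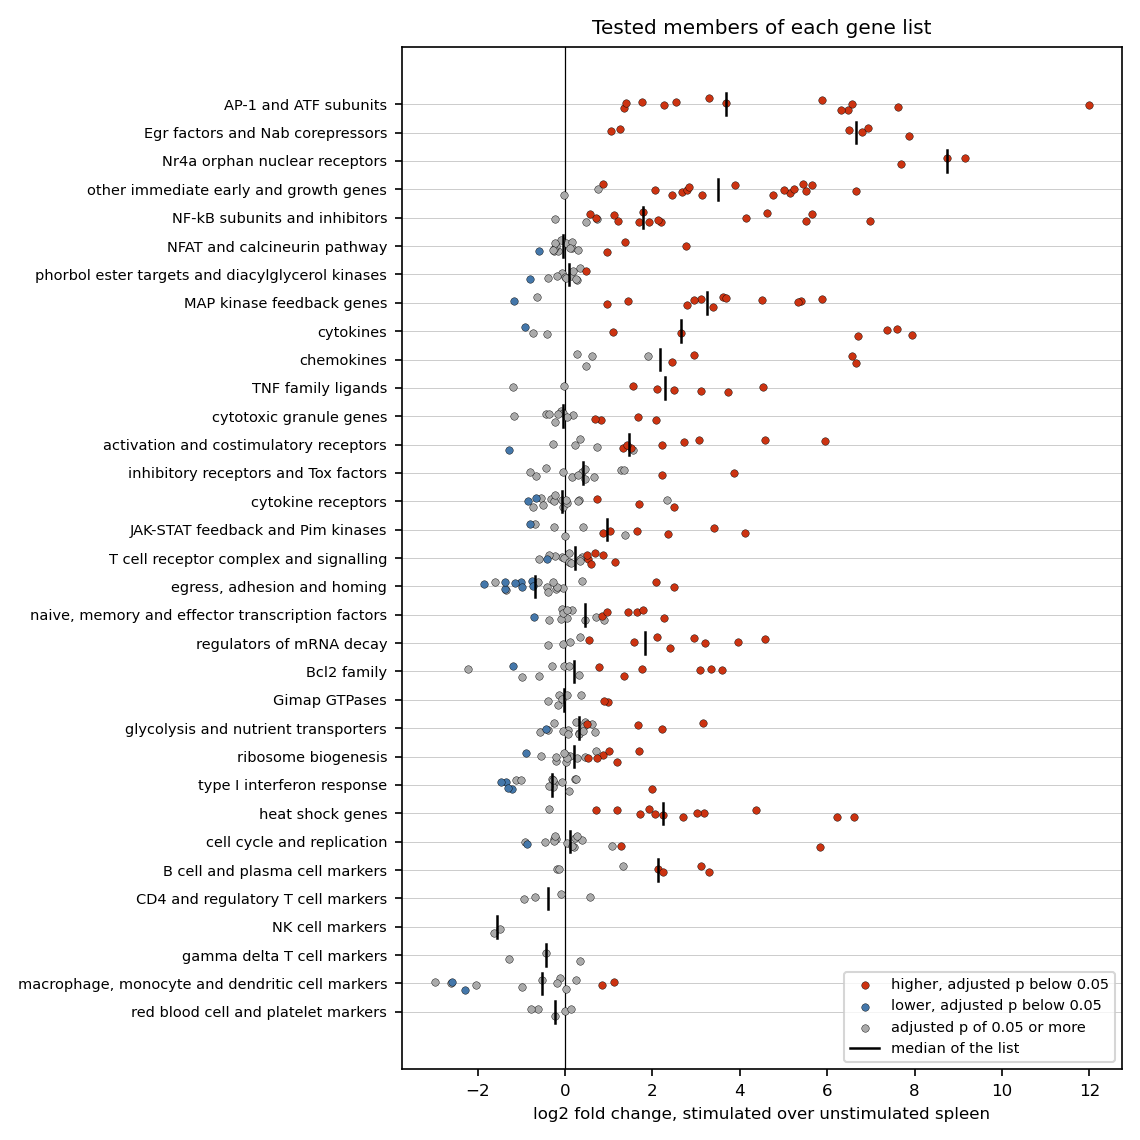
Log2 fold change of every tested member of each gene list (horizontal axis), with red and blue points for members past the threshold and black bars for list medians. AP-1, Egr, Nr4a and heat shock lists lie almost wholly to the right of 0, and egress, adhesion and homing is the list with most blue points, 8 of 20.

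Genes of egress, adhesion and homing gave the clearest losses: 8 of 20 were lower and 2 higher (median −0.69), against 6.12% of all tested genes lower, and without replicate 40 the counts were again 8 and 2. On plain totals 17 were lower and 2 higher, on a scale where 4377 of all 11107 tested genes were lower and 523 higher. S1pr1, the sphingosine 1-phosphate receptor that lets T cells leave lymphoid tissue, was read at 28.6, 39.1, 33.8, 35.1 and 28.1 CPM after stimulation and at 92.7, 90.3, 82.3, 61.6 and 100 CPM without (−1.38 ± 0.17, adjusted p = 0.000107). Every stimulated library was below every unstimulated one. Klf2, the transcription factor that maintains S1pr1, was lower by −1.01 ± 0.15, and S1pr4 by −1.85 ± 0.36, from 11.8 to 17.3 CPM to 2.08, 2.47, 7.47, 5.21 and 3.33 CPM.

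The chemokine receptors of effector and memory cells fell too. Cxcr3, which reads interferon-induced chemokines, was at 26.97, 20.9, 39.5, 22.9 and 30.7 CPM against 68.2, 82.8, 68.0, 75.5 and 69.8 CPM (−1.37 ± 0.18, adjusted p = 0.000241), and Cxcr6 at 24.2, 58.0, 47.6, 42.7 and 31.01 CPM against 137, 71.6, 87.7, 85.3 and 68.2 CPM (−1.14 ± 0.25). The integrin gene Itgb7 (−0.98 ± 0.16), the selectin ligand gene Selplg (−0.74 ± 0.13) and Ccr2 (−0.75 ± 0.23, adjusted p = 0.0347) were the others that fell. In the other direction, Ccr7, the receptor for lymph node homing, was read at 59.1, 74.1, 33.7, 41.3 and 112 CPM against 4.13 to 16.2 CPM (2.50 ± 0.39), and Cxcr4 at 110, 100, 63.3, 71.2 and 125 CPM against 13.9 to 27.9 CPM (2.08 ± 0.23).

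**Figure D4:**
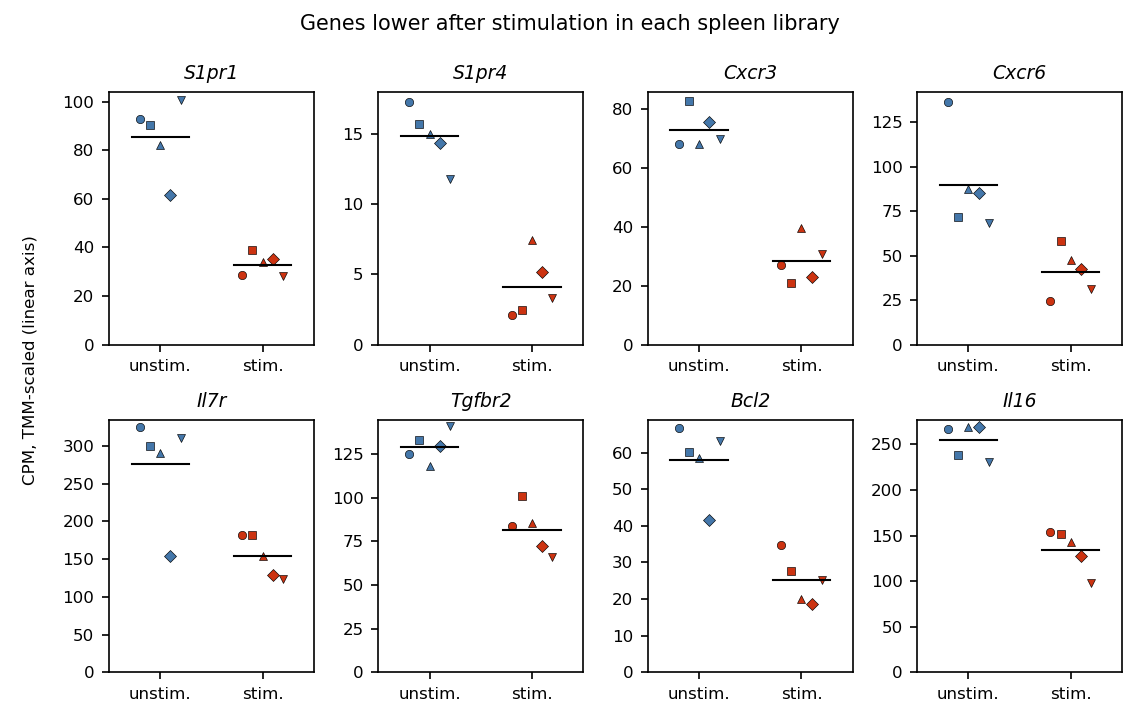
CPM of 8 genes that were lower after stimulation, in each spleen library (linear axes from 0; the 5 marker shapes are the 5 libraries of a group in order of replicate number, bars are group means). Groups are apart in all panels except Il7r, where unstimulated replicate 33 lies among the stimulated libraries.

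Genes of the T cell receptor complex and its signalling chain were higher in 6 of 18 and lower in 1 (median 0.24), and 1 and 7 on plain totals, while 2 of 8 Gimap GTPases of lymphocyte survival were higher with TMM scaling, and none higher and 5 lower on plain totals. Over all 11107 tested genes, 12.6% were higher and 6.12% lower with TMM scaling, and 523 genes were higher and 4377 lower on plain totals.

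Transcription factors of naive, memory and effector states were higher in 6 of 17 and lower in 1 (median 0.47), and 4 and 5 on plain totals. The higher ones belong to different fates: Bcl6, the repressor of follicular helper and memory cells (2.27 ± 0.33), Prdm1, the gene of its antagonist Blimp-1 (1.79 ± 0.22), Tbx21, the gene of the effector factor T-bet (1.65 ± 0.24), and Satb1, a chromatin organiser (1.45 ± 0.28). Tbx21 was read at 125, 214, 134, 151 and 285 CPM against 47.6 to 81.8 CPM. The lower one, Lef1, had −0.71, a call that was lost in 8 of 10 fits leaving out 1 library (adjusted p up to 0.103).

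Genes whose products destroy or silence mRNA were higher in 8 of 12 and lower in none (median 1.84), and 7 and 3 on plain totals. Zfp36, which encodes tristetraprolin and targets cytokine messages for decay, was read at 490, 736, 537, 529 and 694 CPM against 26.7, 29.1, 27.2, 18.6 and 23.6 CPM (4.58 ± 0.18, adjusted p = 3.9e-09). Its homologue Zfp36l1 gained 3.96 ± 0.20, the endonuclease gene Zc3h12a 2.95 ± 0.29 and Btg2, an activator of deadenylation, 3.21 ± 0.19. These genes were even across stimulated libraries, with a list median between 1.58 and 2.17 log2 units in each.

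In the Bcl2 family 6 of 14 were higher and 1 lower (median 0.21), 4 and 1 without replicate 40, and 4 and 3 on plain totals. Bcl2 itself, which protects resting memory cells, was read at 34.8, 27.8, 19.97, 18.6 and 25.1 CPM against 66.6, 60.2, 58.4, 41.6 and 63.1 CPM (−1.20 ± 0.20, adjusted p = 0.00136). Both kinds of relatives went up: the protective Bcl2l1 (1.76 ± 0.26) and Bcl2a1b (3.60 ± 0.31), and the death-promoting Pmaip1, the gene of Noxa (3.09 ± 0.23). The Bcl2a1 copies are nearly identical, so the division of reads between Bcl2a1b and Bcl2a1d is uncertain.

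Heat shock genes, whose products refold damaged protein, were higher in 12 of 13 and lower in none (median 2.24), also without replicate 40. The list took 4.03% ± 0.72 of counts in stimulated and 1.09% ± 0.11 in unstimulated libraries. Hspa1b, an inducible HSP70 gene, was read at 7329, 7434, 7468, 6530 and 2846 CPM against 36.05, 145, 53.5, 52.5 and 136 CPM (6.22 ± 0.49), and its near-identical copy Hspa1a behaved alike (6.62 ± 0.83), though reads cannot be assigned to one of the pair with confidence. For this pair replicate 40, the highest stimulated library in 5 of the 6 higher cytokine genes, was the lowest, although the median response of the whole list was highest there (2.34, against 1.78 to 2.33 in the other 4). The cochaperone gene Dnajb1 changed by 4.38 ± 0.24 and Hsp90aa1 by 3.18 ± 0.15, from 672 to 949 CPM at rest to 9095, 8722, 6110, 6669 and 7016 CPM. Whether the unstimulated cells also spent the 2 hours at 37C is not given in the sources used here. If they did not, the agent and the incubation cannot be told apart, for these genes or for any other gene of the comparison.

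Metabolic and growth lists are set here beside the 12.6% higher and 6.12% lower over all tested genes. The call of the lower glycolysis gene, Eno1, was lost in 9 of 10 fits that leave out 1 library. Those of the higher ribosome biogenesis genes Nolc1 and Nop56 were lost in 8 and 5 of 10. Glycolysis and nutrient transport had 4 of 19 higher and 1 lower (median 0.33), and 3 and 6 on plain totals, led by Hk2, a hexokinase gene (3.15 ± 0.61), and the amino acid transporter pair Slc3a2 (2.21 ± 0.21) and Slc7a5 (1.66 ± 0.30). Gapdh had 0.51 with TMM scaling and −0.14 on plain totals. Ribosome biogenesis had 6 of 18 higher and 1 lower (median 0.20), and 1 higher and 6 lower on plain totals; Gnl3, a nucleolar GTPase gene, was the largest at 1.69 ± 0.30 with 152 CPM in replicate 40 and 48.0 to 63.4 CPM in the other 4. Of 16 cell cycle genes 2 were higher and 1 lower (median 0.10), and 1 and 8 on plain totals, with Cdkn1a, the inhibitor p21, at 5.83 ± 0.78 and Pcna at 1.28 ± 0.29.

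Interferon-stimulated genes leaned downwards, with 4 of 16 lower and 1 higher (median −0.29), but 2 of 16 lower without replicate 40 and 8 of 16 on plain totals. Of all 11107 tested genes, 6.12% were lower with TMM scaling, and 4377 genes on plain totals. The list median was −0.691, −0.440, −0.089, −0.095 and −0.621 in stimulated replicates 36 to 40. In the unstimulated libraries it ran from −0.197 to 0.101, a range that holds replicates 38 and 39. Calls of the lower genes Ifit1 and Usp18 were each lost in 8 of 10 fits that leave out 1 library (edgeR adjusted p up to 0.121 and 0.141). Ifit3 was read at 13.1, 10.9, 20.9, 3.30 and 24.6 CPM against 32.5 to 48.3 CPM (−1.46 ± 0.39, adjusted p = 0.0179), and its call ended without stimulated replicate 37 (adjusted p = 0.0528). Rtp4, an interferon-induced gene, had −1.31 ± 0.33. Isg15, a ubiquitin-like modifier, was the higher one, at 7.89, 6.88, 8.56, 9.89 and 20.8 CPM against 1.59 to 5.18 CPM (1.98 ± 0.44).

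Beyond the lists, among genes whose groups did not overlap and whose mean reached 10 CPM, the lowest log2 fold changes were those of Vcam1, an adhesion molecule better known from endothelium and macrophages (−3.44 ± 0.82, from 10.2 to 47.2 CPM to at most 7.45 CPM), and Exoc8, a subunit of the exocyst (−2.81 ± 0.41, from 15.97 to 20.7 CPM to 0.665 to 3.94 CPM). Slc35c1, a GDP-fucose transporter gene (−1.98 ± 0.35), and Sgsh, a lysosomal sulfatase gene (−1.97 ± 0.37), came next. Among the higher genes was Areg, the gene of amphiregulin, a growth factor for epithelium, at 51.6, 59.5, 32.2, 46.7 and 80.0 CPM against 0, 1.85, 0, 0 and 0.729 CPM (6.77 ± 0.88). The lower genes had longer messages, with a median length of 2688 bases against 1887 for the higher genes and 1919 for the rest. The genes higher by over 8-fold sat in short loci, with a median span of 10.4 kb against 22.6 kb for genes that did not pass.

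Per length and on the authors' TPM scale, the most abundant entries of stimulated spleen that are neither mitochondrial nor ribosomal protein genes included small or repetitive RNAs and pseudogenes (Snord87, Gm26924, Tpt1-ps3, Gm15662, n-R5s193, Gm10275, Metazoa_SRP and mmu-mir-6236) and Lars2. Gm26924 and Lars2, entries known to collect ribosomal RNA reads, together took 9.97% ± 3.03 of counts in stimulated and 6.83% ± 1.76 in unstimulated libraries.

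Other cell types could have entered the gate, and their markers are given for that reason. B cell genes moved with stimulation: 4 of 7 tested were higher (median 2.13), among them Pax5, Ms4a1 and Cd79a. Ms4a1, the gene of CD20, was read at 26.5, 30.5, 36.5, 18.1 and 14.9 CPM against 1.92, 6.62, 6.60, 9.19 and 2.19 CPM (2.25 ± 0.44), and Cd79a at 6.25 to 10.9 against 0.524 to 2.75 CPM. The summed level of the list, most of it Ighm, was 217.0 to 488 CPM in stimulated and 180.5 to 584 CPM in unstimulated libraries. No B cell marker of the list was at 0 in all 10 libraries. Over all tested genes 12.6% were higher and 6.12% lower with TMM scaling. The macrophage, monocyte and dendritic list had 2 of 13 lower, Csf1r (−2.29 ± 0.57) and Emr1 (−2.58 ± 0.78), and 2 higher, Cd74 (0.84 ± 0.22) and H2-Aa (1.13 ± 0.32), which B cells and activated T cells can express too. The counts were 4 lower and 1 higher without stimulated replicate 40, and 7 lower and none higher on plain totals. Its summed level was 194.7 to 400.3 CPM in stimulated and 182.5 to 269.4 CPM in unstimulated libraries, and the 2 higher calls were lost in 3 and 7 of 10 fits leaving out 1 library (adjusted p up to 0.0694). Below a mean of 10 CPM, and chosen after their values were seen, stand 3 genes of tissue macrophages that were called lower: Cd5l at 1.66 to 12.6 CPM without and at most 0.951 CPM with stimulation, Emr4 at 1.38 to 5.67 against at most 0.133 CPM, and Adamdec1 at 2.10 to 5.43 against at most 0.521 CPM. Vcam1, given above, is known from the same cells. The part of B cells and myeloid cells in the results was not tested.

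Other markers were not called with TMM scaling, and on plain totals 2 of 4 CD4 and regulatory T cell markers and both NK cell markers were called lower, as were 4377 of all 11107 tested genes. The 4 CD4 and regulatory T cell markers summed to 36.2 to 93.8 CPM in stimulated and 40.5 to 83.9 CPM in unstimulated libraries, the NK cell markers to 5.16 to 15.8 and 11.5 to 83.2 CPM (the highest in unstimulated replicate 30, with 72.6 CPM of Klrb1c), and the neutrophil and mast cell markers to at most 4.10 CPM. Gamma delta T cell markers split the stimulated libraries: Tcrg-C2, a constant segment of the gamma chain, was read at 49.8, 40.6, 209, 194 and 27.6 CPM in replicates 36 to 40, with replicates 38 and 39 near the 92.1 to 235 CPM of the unstimulated group. Sox13 and Mcpt8 had no counts in any spleen library.

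The stimulated libraries were not equal in the size of the response. Relative to the mean of the unstimulated libraries, the median log2 difference over the 1400 higher genes was 1.11, 1.18, 0.73, 0.88 and 1.59 in replicates 36 to 40, and over the 680 lower genes −1.04, −0.99, −0.76, −0.87 and −1.24. Replicate 40 was the highest stimulated library in 916 of the 1400 higher genes (65.4%), and replicate 38 the lowest in 677 (48.4%). The spread of list medians was wide for cytokines, from 0.40 in replicate 38 to 3.37 in replicate 40, and for NF-kB genes (0.79 to 2.62). It was narrow for Egr factors (4.23 to 5.32), mRNA decay regulators (1.58 to 2.17) and heat shock genes (1.78 to 2.34). With 9 cytokine genes tested, the cytokine median is the value of a middle gene alone. In replicates 38 and 40 Ifng was read at 2348 and 4351 CPM, Il10 at 50.4 and 80.1 CPM, and Tnf at 438 and 1172 CPM. Replicates 38 and 39, the pair with the smaller response, were also the pair with high Tcrg-C2. Replicate 40 had the highest mitochondrial share, and without it 1265 genes were higher and 694 lower.

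**Figure D5:**
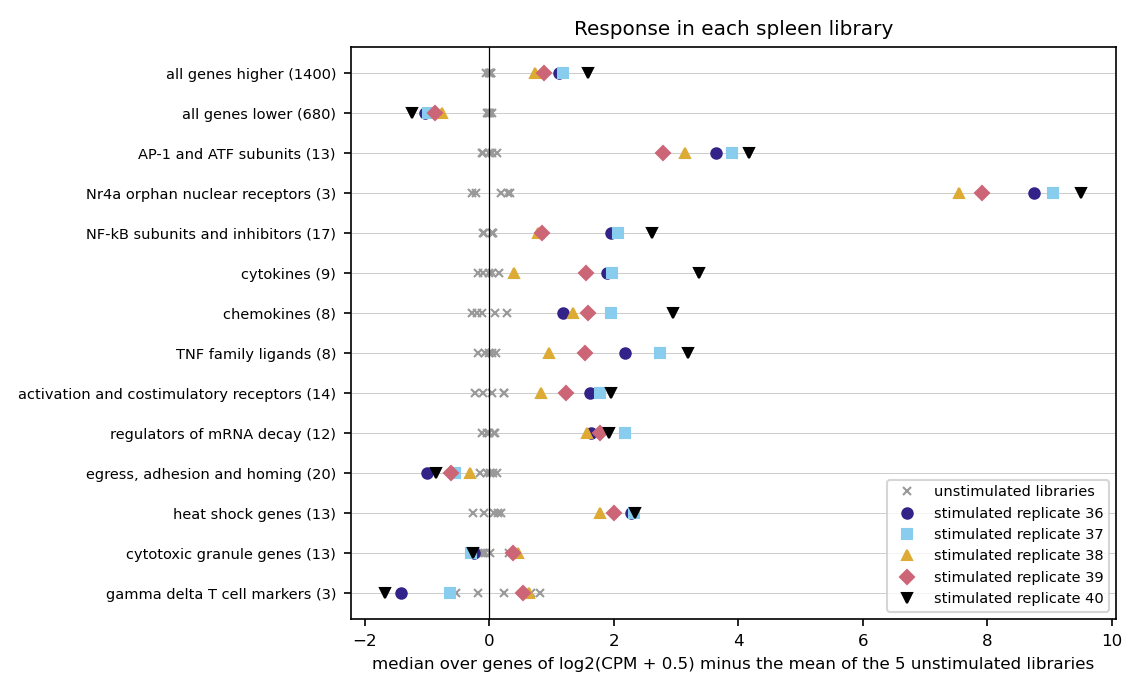
Median over the genes of a set of log2(CPM + 0.5) minus the mean of the 5 unstimulated libraries (horizontal axis), for each library; numbers in brackets are genes in the set. Replicate 40 lies at the strong end for most induced sets and replicates 38 and 39 at the weak end. The medians of mRNA decay and heat shock genes are tighter than that of the 9 cytokine genes, which is the value of a middle gene.

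To ask where the spleen response differs from that of brain CD8 T cells of the same age and sex, the change in spleen was tested against the change in 10 aged male brain libraries, 6 unstimulated and 4 stimulated, in 1 interaction model. It called 4577 of 12117 genes (37.8%), 4323 with a more positive change in spleen, with a median of 4.04 over all genes. The stimulated brain libraries were sparse: they held 2271 to 4464 genes with a count, 38.5% to 67.5% of counts were mitochondrial, and Gdi2, Taf15, Eif2s2 and Inpp4b, which gave 4 of the 5 smallest adjusted p in that direction, had no count in any of the 4 stimulated brain libraries. When genes had to reach 10 counts in each of the 20 libraries, 493 were left and 161 were called, 77 with a more positive and 84 with a more negative change in spleen. Of the 10 genes with the smallest adjusted p, 5 in each direction, Tnfaip3 alone had a mean over 10 CPM in all 4 groups. Scaled over these 20 libraries, it rose in the spleen from 78.7 ± 5.45 to 3587 ± 734 CPM (SD, n = 5 each), while brain cells held 1866 ± 392 CPM without (n = 6) and 801 ± 258 CPM with stimulation (n = 4), an interaction of 6.73 ± 0.56 log2 units (edgeR adjusted p = 8.16e-08). These Tnfaip3 values rest on scaling that includes the sparse stimulated brain libraries. The median interaction was 4.04 in that fit and −0.095 in the fit of 493 genes. How much of the 6.73 comes from the scaling was not tested.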

How the data were processed

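RNA-seq of sorted CD8 T cells was deposited by the authors as a series table of gene counts and as a file per sample with expected counts and TPM. Per the submitters' processing notes, Bowtie2 2.2.0, RSEM 1.2.12 and the build mm10 were used; annotation release and strand setting: not given in the sources used here. Hence overlapping and near-identical genes share reads in an unknown way. The deposited counts equalled the authors' expected counts to within 0.5 per gene. All 10 spleen libraries were grouped by title. The 5 stimulated and 5 unstimulated libraries were compared with edgeR 4.0.16 in R 4.3.3 (filterByExpr with a minimum count of 10, TMM factors, quasi-likelihood test, Benjamini-Hochberg adjustment over 11107 genes, threshold 0.05), and the change was compared with that of 10 aged male brain libraries by an interaction contrast over 12117 genes. CPM values are counts over TMM-scaled library totals, errors of log2 fold changes are standard errors, and TPM is the authors' own. Library measures were compared by exact permutation tests in Python 3.11.15 (scipy 1.17.1, numpy 2.4.6, pandas 2.3.3, matplotlib 3.10.9). The scripts were tested on simulated data with 200 changed genes. In spleen 86.8% of changes of 3 log2 units and 30.9% of changes of 1 log2 unit were recovered. The interaction step recovered none of the changes of 1 or 3 log2 units, 37.1% of those of 6 and 79.6% of those of 10. Differences between the tissues of 3 log2 units or less can thus go unseen.

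Alternatives used DESeq2 1.42.0, limma 3.58.1 (voom), other filters, samples and scalings. Gene lists, members and tests were chosen with earlier results of these data known. The rule for named genes took, per list and direction, the 4 called members with the largest changes at 5 CPM or more on average (for lists without a call, the 2 most abundant members). It added the 15 highest and 15 lowest called genes at 10 CPM or more whose groups were apart, the 10 highest by TPM, the 5 smallest adjusted p per direction of the interaction, and Cd200r1 and Cd44. Some genes that the rule took are not reported here. All other genes are list members, gate markers or genes chosen after their values were seen. Of 162 genes named by the rule, 116 had a RefSeq promoter. Counting intervals cover counting error only. No 2 libraries of a group agreed within sampling noise.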

Additional observations from a re-analysis of the deposited data

Results flagged for a closer look

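In 33 of 332 groups of 5 libraries, 1 library stood apart from the other 4 by more than Dixon's 95% limit, which chance passes in about 1 in 20 groups. Values are CPM unless a unit is given, with the range of the other 4 libraries after each.

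Stimulated replicate 40 accounts for 13 of them. Its mitochondrial share was 20.83% (14.77 to 15.58% in the others). It was high for the kinase gene Plk2 at 55.0 (23.8 to 28.5), the chemokine gene Xcl1 at 155 (49.3 to 77.0), Il10ra at 276 (148 to 166) and Gimap6 at 1169 (600 to 765). The same held for the nucleolar genes Gnl3 at 153 (48.0 to 63.4) and Nop56 at 269 (106 to 149), for Isg15 at 20.8 (6.88 to 9.89) and for the mismatch repair gene Mlh3 at 10.5 (2.43 to 3.94). It was low for Hspa1b at 2846 (6530 to 7468), Tgtp2 at 10.6 (30.8 to 37.7), Dennd6a at 0.665 (8.55 to 10.4) and Slc35c1 at 1.33 (4.48 to 5.73). In stimulated replicate 36 the rRNA-like entry Gm26924 was at 31281 (80959 to 93946).

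Unstimulated replicate 33 had the largest total, 14709415 counts or 14.71 on the scale of 1e6 (8.999 to 10.18), and the smallest share of the 10 most abundant genes, 16.93% (20.38 to 21.49%). It was low for Il7r at 154 (290 to 325), Lef1 at 76.9 (175 to 191) and Nop58 at 62.1 (88.9 to 97.1), and high for Il21 at 1.86 (0 to 0.441), Tcrg-C2 at 235 (92.1 to 128) and Metazoa_SRP at 1217 (794 to 870). Unstimulated replicate 30 was high for Cd40lg at 21.9 (0.706 to 3.85), Cd226 at 148 (30.99 to 59.8), Cxcr6 at 137 (68.2 to 87.7), Tbx21 at 81.8 (47.6 to 57.4), Klrb1c at 72.6 (5.84 to 11.5) and Itga2 at 8.55 (4.05 to 5.27), and low for Egr2 at 3.05 (6.20 to 7.27). Unstimulated replicate 34 had Nfkbia at 21.9 (25.8 to 27.3) and Slc3a2 at 55.5 (45.1 to 47.8), and unstimulated replicate 32 had Il10 at 1.09 (0 to 0.155) and Tnfsf4 at 5.85 (1.40 to 2.10).

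The change with stimulation differed between spleen and brain by the edgeR interaction test in 10 named genes. The difference, spleen minus brain on the log2 scale, was 6.73 for Tnfaip3, 15.83 for Gdi2, 16.10 for Taf15, 15.91 for Eif2s2 and 15.18 for Inpp4b. It was −12.38 for Cdc42bpg, −14.24 for Gtse1, −12.57 for Ipp, −11.29 for Skida1 and −7.07 for Slc17a9. Across stimulated brain libraries Gtse1 ran from 0 to 474.5 CPM (mean 118.6), Ipp from 0 to 583 (mean 145.8) and Skida1 from 0 to 4.033 (mean 1.008). For each of them, 1 library held all or nearly all of the level. Cdc42bpg ran from 0 to 201.8 CPM and Slc17a9 from 2.453 to 35.54 CPM in the same group. All except Tnfaip3 had a group with a mean under 1 CPM, so these fitted sizes depend on the prior count and are no bounds.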

How the results depend on the processing

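With 2080 genes past the threshold in spleen, the count was 2089 with RLE size factors, 2671 with DESeq2, 2230 with limma voom, 1730 without the filter on low counts, 2113 with at least 1 CPM in all 10 libraries and 2080 from rounded expected counts. It fell to 53 in a fit of all 35 libraries, which share 1 estimate of the spread with the sparse brain libraries, and to 344 when a log2 fold change of at least 1 was tested. Plain library totals, chosen after seeing the data, gave 4900. On them 10 named log2 fold changes changed sign. For 6 of these the gene was called on 1 of the scales: Rasgrp1 went to −0.20, Ptpn22 to −0.002, Cblb to −0.075, Gapdh to −0.14, Taf15 to −0.034 and Cd44 to −0.33. The other 4 were called on neither scale, Cd4 at −0.09, Tcrg-C4 at −0.26, Gdi2 at −0.44 and Cdc42bpg at −0.54. The scales differ by 0.65 log2 units. Leaving out each of the 10 libraries gave 1554 to 2340 genes, and 23 of 143 called named genes lost their call in at least 1 of these fits; Nop56 moved from 0.86 to 0.56 without stimulated replicate 40. The interaction count of 4577 was 2773 with limma voom, 161 with at least 10 counts in every library, and 4038 to 4877 when 1 library was left out; the cause of the difference between the tools was not tested. The difference in genes with a count ranged from −1076 to −837 over the fits leaving out 1 library, and was −833 with totals thinned to that of the smallest library, which leaves the groups' unequal mitochondrial shares in place; that in mitochondrial share ranged from 3.45 to 4.96 percentage points, and that in the share of the 10 most abundant genes from 7.76 to 9.87. No paired analysis was possible because the replicate numbers of the stimulated and unstimulated groups do not overlap.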
